A study of Rattus norvegicus with 4 samples.

Results

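The contractile genes of smooth muscle cells and pericytes were examined in cultured rat ovaries: Tagln, Acta2, Actg2, Myh11, Cnn1, Des, Myl9, Tpm1, Tpm2 and Lmod1. They were taken as every probe set whose platform annotation gives 1 of these 10 symbols alone, which gave 18 probe sets for the 10 genes, of 31042 probe sets and 14217 named genes on the array. Another 5 probe sets carry the symbol of Acta2 together with that of the cardiac actin Actc1 and were not used. The study compared whole ovaries of 4-day-old rat pups kept for 2 days in organ culture with the growth factor GDNF (2 samples) with ovaries cultured in the same way with no factor (2 samples). Medium in both groups held albumin, insulin, transferrin, ascorbic acid and antibiotics. The sources used here give no dose of GDNF. Each sample was RNA pooled from 6 to 10 ovaries and hybridised to 1 array, so the spread between samples is one between pools. Nothing in the labels says whether replicates were separate cultures or litters, so p-values reflect only how far these samples spread, and part of that may be technical. For each probe set, the test also draws on the variance of other probe sets of like signal.

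Smooth muscle cells surround arterioles and, in the ovary, the theca of growing follicles, while pericytes sit on the wall of capillaries. Both shorten by sliding smooth muscle myosin over actin filaments. Contraction starts when myosin light chain is phosphorylated, and tropomyosins, calponin and transgelin lie along the actin filament, where tropomyosin stabilises it and calponin restrains the motor. Transcription of most of these genes depends on serum response factor, which binds a DNA element called the CArG box, and on its co-activator myocardin or the related MRTF proteins. Several of the proteins are also made by fibroblasts and other cells with stress fibres, so the genes do not mark 1 cell type alone. Since whole ovaries were measured, fewer cells of a type and less RNA per cell cannot be told apart.

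Among the 10 genes, the smooth muscle actin Acta2 had the smallest spread within groups. For this reason the sequences just before the annotated start sites of Acta2 and of the other actin, Actg2, are shown. Both are 160 bases from RefSeq, build GRCr8, minus strand, and end at the base before the start site. Acta2 lies at chr1:241172504-241172663 and Actg2 at chr4:117594040-117594199. Capitals mark runs that match the CArG box, or match it with 1 of its 6 inner bases other than A or T.
Acta2: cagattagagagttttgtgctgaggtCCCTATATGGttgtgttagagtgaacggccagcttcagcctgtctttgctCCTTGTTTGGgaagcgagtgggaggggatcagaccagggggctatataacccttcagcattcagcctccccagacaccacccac
Actg2: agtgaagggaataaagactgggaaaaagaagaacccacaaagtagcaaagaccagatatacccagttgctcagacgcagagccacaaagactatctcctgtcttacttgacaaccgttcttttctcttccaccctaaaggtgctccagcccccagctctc
The Acta2 window held 2 such runs, which begin 134 and 84 bases before the start site, each with 1 deviating inner base. The element reads the same on both strands, so 1 search covers both. Of the 10 genes, 6 had a promoter in the table used (Acta2, Actg2, Cnn1, Des, Tpm1 and Tpm2). In windows of 250 bases before to 50 after the annotated start, these letters were found in that of Acta2 and in none of the others. Whether the annotated starts, that of Actg2 among them, are the ones used in these ovaries was not tested. Their absence from a window therefore does not show that a gene lacks the element. Among 33469 promoters of that length, 1.64% held the exact element and 9.42% held it or the form with 1 deviation. A match is a description of the letters and not evidence that a factor binds there.

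Values are MAS5 signals, a linear array intensity. Each probe set has its own response, so levels were compared between samples and not between probe sets. Of the 18 probe sets, 13 (9 genes) passed the filter on low signal, set at the 40th percentile of 4-sample means (near a signal of 21.4), and were tested. Over all probe sets tested the samples correlated at r = 0.971 to 0.986, a description across genes. The median signal per array was 36.7 to 41.1. The ratio of 3' to 5' beta-actin control signal, which rises as RNA is degraded or labelled unevenly, was 2.62 and 3.61 in GDNF replicates 1 and 2, against 3.76 and 3.34 in control replicates 1 and 2. The same ratio for Gapdh was 1.11 and 1.44 in GDNF replicates 1 and 2, against 1.28 and 1.22 in control replicates 1 and 2.

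Most of the contractile genes had a somewhat lower mean signal in GDNF-treated ovaries, though none passed the test. Of the 13 probe sets tested, 10 had a lower and 3 a higher mean log2 signal in GDNF samples, against 51.5% lower among all 18625 probe sets tested. Cnn1 passed the filter only through its control samples, so its direction was partly fixed by the filter, and without it 9 of 12 were lower. Tagln, Acta2, Tpm2 and 3 probe sets of Tpm1 were lower in both GDNF samples than in either control sample. These 6 of 13 (46.2%) compare with a background of 16.6% of all probe sets. None of the 13 lay above the controls in this way, against 13.4% of all probe sets. Below the filter, Myh11 1381219_at and Tpm1 1371240_at did. The 6 are not 6 independent measurements, since 3 of them read the same gene.

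After Benjamini-Hochberg adjustment over all probe sets, limma called 0 of the 13 members at 0.05 (adjusted p = 0.999 for each). It called 0% of all probe sets as well. At an unadjusted p under 0.05 it took in Tagln and 1 Tpm1 probe set, 2 of 13, against 2.73% (508) of all probe sets. That count was 0 without the mean-variance trend (599 of all probe sets) and 1 with median centring (384 of all probe sets). The sizes of the differences in these 2 probe sets also depended on single samples. With 1 sample left out, the log2 fold change of Tagln ran from -1.01 to -0.32 and that of Tpm1 1370287_a_at from -0.52 to -0.17. The median log2 fold change, GDNF minus control, was -0.20 over the 13 probe sets (-0.19 without Cnn1) and -0.01 over all probe sets tested. With 2 samples against 2, an exact permutation test cannot give a two-sided p below 0.333.

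**Figure D1:**
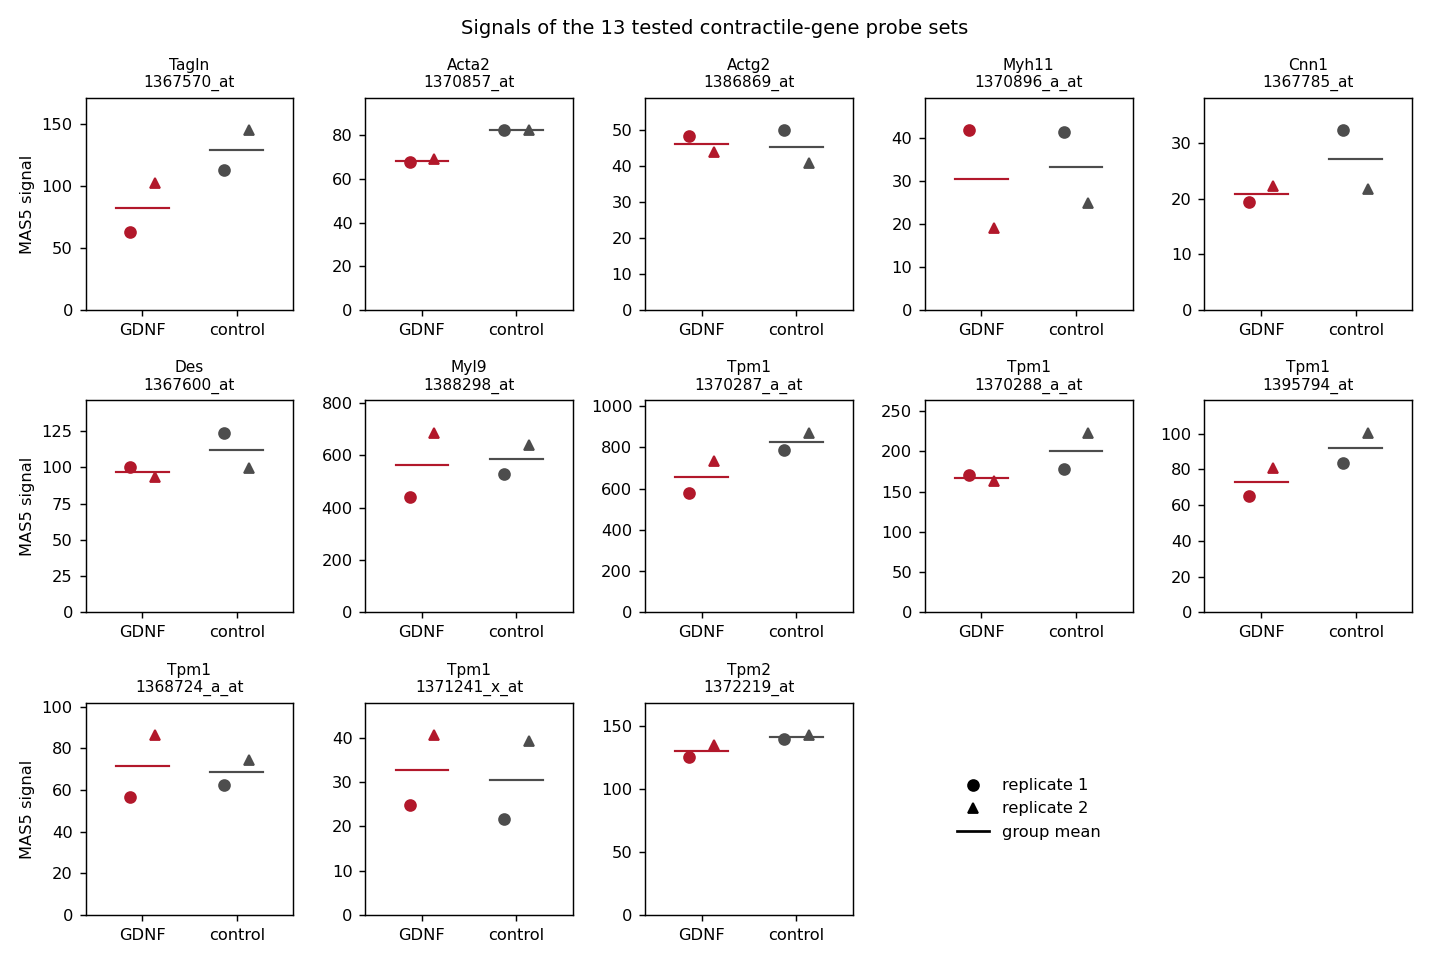
MAS5 signal (vertical axis, linear, from 0, with its own scale in each panel) of the 13 tested probe sets in GDNF and control samples. Circles are replicate 1, triangles replicate 2 and lines the mean of the 2 samples; for Tagln, Acta2, Tpm2 and the first 3 Tpm1 panels both GDNF points lie below both control points.

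Tagln had the largest difference of the 13. It encodes transgelin (SM22 alpha), an actin-binding protein that appears early in smooth muscle differentiation. Its signal was 62.8 and 102 in GDNF replicates 1 and 2, against 113 and 145 in control replicates 1 and 2. Both GDNF samples were the lowest, but GDNF replicate 2 was close to control replicate 1. The means were 82.5 ± 27.8 in GDNF ovaries and 129 ± 22.9 in control ovaries (SD, n = 2 each), so the GDNF mean was 64.1% of the control mean. The log2 fold change was -0.67 (SE 0.26, 95% interval -1.27 to -0.06). The GDNF samples themselves differed by 0.69 on the log2 scale, slightly more than the groups did. The fold change was -0.32 without GDNF replicate 1 and -1.01 without GDNF replicate 2.

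Of the smooth muscle actins, Acta2 encodes alpha smooth muscle actin, the thin-filament actin most used to identify vascular smooth muscle and contractile pericytes. Its signal was 67.8 and 69.1 in GDNF samples, against 82.3 and 82.2 in control samples. Samples of a group almost coincided and the groups did not overlap. The log2 fold change was -0.26 (95% interval -0.66 to 0.14), and it stayed between -0.28 and -0.25 with each sample left out in turn. Near-equal samples within a group make that range narrow. The spread within groups (pooled SD 0.014 on the log2 scale) was far below limma's SE of 0.17, which also draws on the variance of other probe sets of like signal.

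Actg2, the gamma actin of enteric and other visceral smooth muscle, gave 48.3 and 43.9 in GDNF samples, against 49.9 and 40.7 in control samples. Its groups overlapped fully, with a log2 fold change of 0.03 (SE 0.22, 95% interval -0.50 to 0.56), and leaving out single samples gave -0.11 to 0.17. The difference between the responses of these genes was not tested, and the interval for Actg2 holds the value of Acta2.

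Among motor genes, Myh11 encodes the smooth muscle myosin heavy chain, the most specific protein of the mature smooth muscle cell. Its tested probe set read 41.8 and 19.0 in GDNF replicates 1 and 2, against 41.5 and 25 in control replicates 1 and 2. Replicate 1 was high and replicate 2 low in both groups, and the groups overlapped (log2 fold change -0.18, SE 0.43). The direction turned when 1 sample was left out, with a range of -0.73 to 0.36. A second Myh11 probe set was at 2.0 and 1.0 in GDNF samples, against 0.8 in both control samples, below the filter.

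Myl9 encodes the regulatory light chain whose phosphorylation switches smooth muscle myosin on. It read 442 and 686 in GDNF samples, against 529.8 and 640.2 in control samples. The GDNF samples held both the lowest and the highest value, so they enclosed the controls. The log2 fold change was -0.08 (SE 0.21, 95% interval -0.57 to 0.41), and it turned to 0.24 without GDNF replicate 1.

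Tropomyosins are coiled-coil proteins that run along the actin groove, and Tpm1 makes many isoforms by alternative promoters and exons. Tpm1 had 7 probe sets, of which 5 were tested, and these did not give 1 answer. The probe set 1370287_a_at read 579 and 735 in GDNF replicates 1 and 2, against 786 and 871 in control replicates 1 and 2. Both GDNF samples were below both controls, with means of 657 ± 110 in GDNF ovaries and 829 ± 60.1 in control ovaries (SD, n = 2 each). The log2 fold change was -0.34 (SE 0.14, 95% interval -0.67 to -0.02), with -0.17 without GDNF replicate 1 and -0.52 without GDNF replicate 2.

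The Tpm1 probe set 1370288_a_at read 171 and 163 in GDNF samples, against 178 and 223 in control samples (log2 fold change -0.25, SE 0.15). The probe set 1395794_at read 64.9 and 80.6 in GDNF samples, against 83.4 and 101 in control samples (-0.34, SE 0.20). In both the groups were apart, but by little: the highest GDNF and the lowest control sample were close together. Leaving out single samples, 1370288_a_at ran from -0.42 (without control replicate 1) to -0.09 (without control replicate 2), and 1395794_at from -0.49 (without GDNF replicate 2) to -0.18 (without GDNF replicate 1).

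The remaining tested Tpm1 probe sets overlapped between the groups. The probe set 1368724_a_at read 56.7 and 86.3 in GDNF samples, against 62.6 and 74.3 in control samples (log2 fold change 0.04, SE 0.25). The probe set 1371241_x_at, whose suffix marks probes that may also bind other transcripts, read 24.9 and 40.6 in GDNF samples, against 21.7 and 39.4 in control samples (0.12, SE 0.38). In these, replicate 2 was the higher sample in both groups, by more than the groups differed. The other Tpm1 probe sets, 1370513_at (4.4 and 7.5 in GDNF, 6.1 and 4.2 in control samples) and 1371240_at (2.1 and 0.9 in GDNF, 0.5 and 0.8 in control samples), were below the filter. The files do not say which isoform each probe set reads, so the differences are not assigned to isoforms.

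Tpm2, which encodes beta tropomyosin, read 125 and 135 in GDNF samples, against 139 and 142 in control samples. The groups did not overlap, but the difference was small, a log2 fold change of -0.12 (SE 0.14, 95% interval -0.45 to 0.22, and -0.17 without GDNF replicate 2 to -0.06 without GDNF replicate 1). Its second probe set was below the filter (3.7 and 5.9 in GDNF, 7.5 and 3.2 in control samples).

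Cnn1 encodes calponin 1, which binds actin and slows the myosin motor. It read 19.4 and 22.2 in GDNF replicates 1 and 2, against 32.3 and 21.8 in control replicates 1 and 2. Control replicate 1 alone was high, and the other samples lay close to the filter. The log2 fold change of -0.34 (SE 0.32) was -0.07 without control replicate 1 and -0.61 without control replicate 2.

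Des encodes desmin, the intermediate filament of muscle cells, also present in pericytes. It read 100.2 and 93.5 in GDNF samples, against 124 and 99.7 in control samples. Here too control replicate 1 stood highest and the other samples were alike (log2 fold change -0.20, SE 0.17), and the value was -0.04 without control replicate 1 and -0.35 without control replicate 2. Lmod1, which encodes leiomodin 1, a nucleator of smooth muscle actin filaments, had signals of 1.8 and 8.6 in GDNF samples, against 7.5 and 6.5 in control samples, and was not tested.

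**Figure D2:**
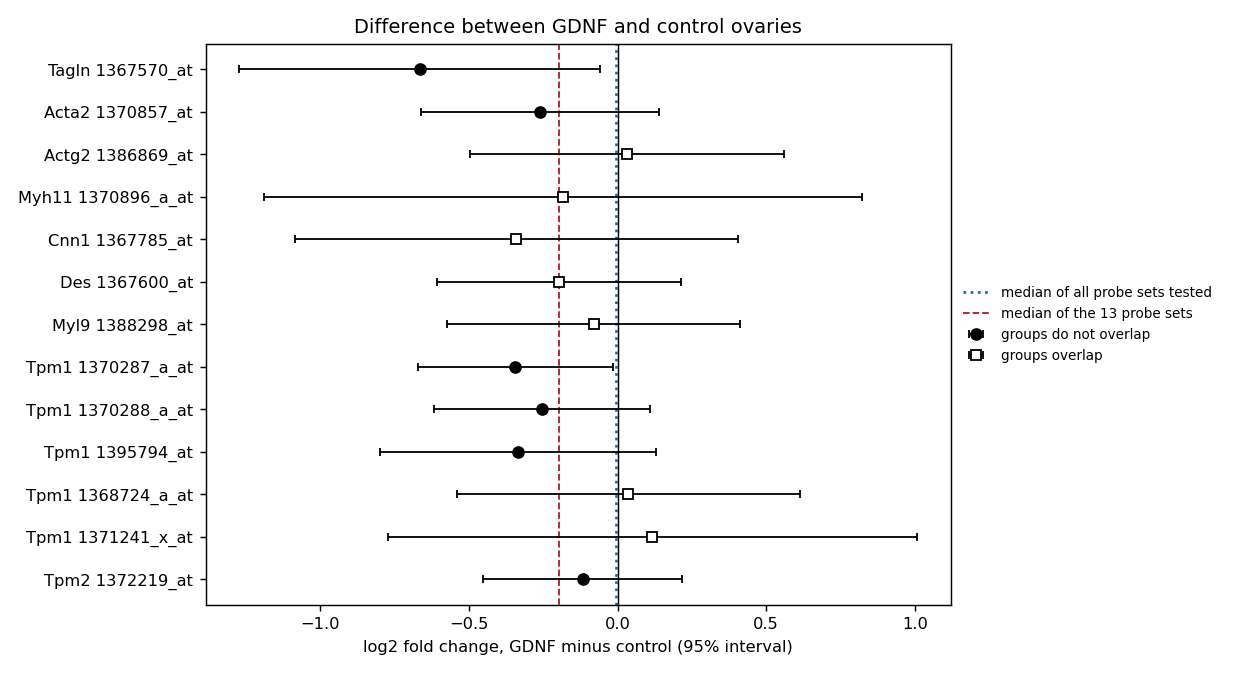
Log2 fold change, GDNF minus control, with limma's 95% interval for the 13 tested probe sets. Filled circles have no overlap between the groups and open squares overlap; the dashed line is the median of the 13 (-0.20) and the dotted line that of all probe sets tested (-0.01), and the intervals of Tagln and Tpm1 1370287_a_at lie below 0.

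The genes did not share 1 pattern over the samples. GDNF replicate 1 was the lowest sample for Tagln, Myl9 and Tpm1, at -0.68, -0.36 and -0.26 on the log2 scale relative to each gene's 4-sample mean (Tpm1 as the mean of its tested probe sets), and also for Cnn1 (-0.26), Acta2 (-0.14) and Tpm2 (-0.11). GDNF replicate 1 also had the lowest 3' to 5' beta-actin ratio, 2.62, and the lowest Gapdh ratio, 1.11, while GDNF replicate 2 had the highest Gapdh ratio, 1.44. The part of that in these values was not tested. Myh11 was high in replicate 1 and low in replicate 2 of both groups, at 0.46 and -0.64 in GDNF samples and 0.45 and -0.26 in control samples. Cnn1 and Des were highest in control replicate 1, at 0.44 and 0.25.

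Averaged over the 9 tested genes, the centred log2 signal was -0.15 and -0.07 in GDNF replicates 1 and 2, and 0.16 and 0.06 in control replicates 1 and 2. Both GDNF samples lay below both controls in this average, as did 16.6% of all probe sets tested, each taken singly. Cnn1, which passed the filter only through its control samples, is among the 9 genes averaged. For 4 of the 13 probe sets (Acta2, Tpm2, Tpm1 1370287_a_at and Tpm1 1395794_at) the difference between the groups exceeded the larger range within a group, against 19.1% of all probe sets tested. Tpm1 1370287_a_at did so by a margin too small to tell from a tie (both 0.34 on the log2 scale). The median absolute difference between replicates was 0.31 in GDNF and 0.29 in control samples over the 13 probe sets, against 0.21 in GDNF and 0.15 in control samples over all probe sets tested.

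Replicates 1 and 2 stood in the same order in both groups for 10 of the 13 probe sets, 7 with replicate 2 higher and 3 with replicate 1 higher. Over all probe sets tested the order was the same in 59.6%. Within replicate number 1, 11 of the 13 probe sets were lower in the GDNF sample (median difference -0.26), against 49.8% of all probe sets tested. Within replicate number 2, 8 of the 13 were lower (median difference -0.09), against 52.4% of all probe sets.

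**Figure D3:**
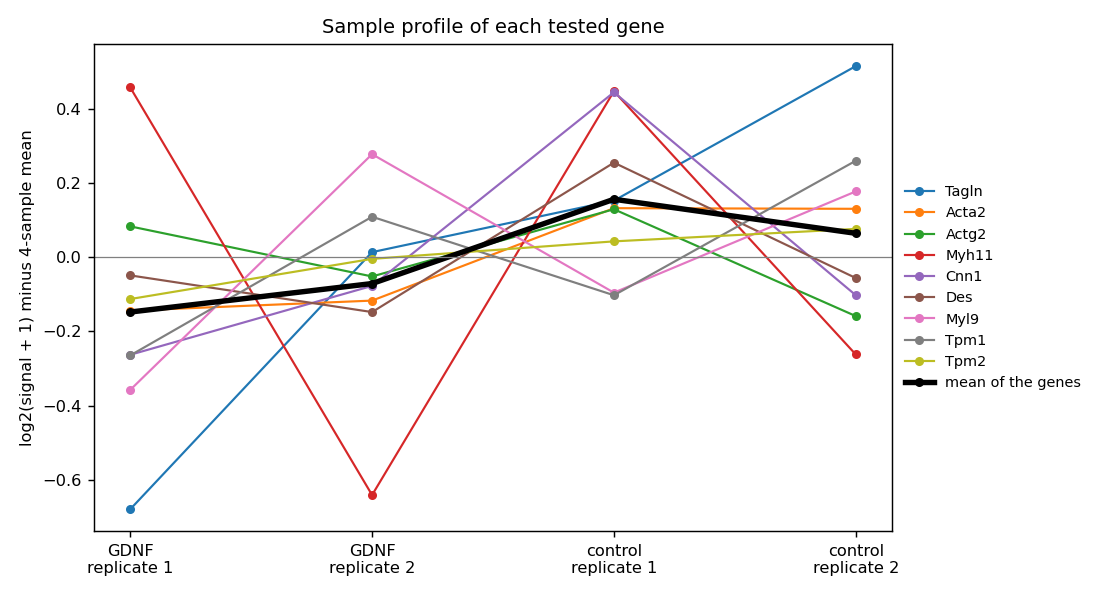
Centred log2(signal + 1) of the 9 tested genes in each sample (several probe sets of a gene averaged first), with the mean of the genes in black. Lines join the samples of 1 gene and carry no order; the mean lies at -0.15 and -0.07 in GDNF samples and at 0.16 and 0.06 in control samples, while Myh11 and Tagln span the widest ranges.

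The 5 probe sets whose profile over the 4 samples was nearest to this average, among 8421 with 1 other symbol and at least its range, were those of Prxl2c, Ppp2r5b (a regulatory subunit of protein phosphatase 2A), Eml3 (a microtubule-associated protein), Tnik (a protein kinase) and Med31 (a Mediator subunit). Their root-mean-square differences from it were 0.014 to 0.018 on the log2 scale. Prxl2c, the nearest, read 505 and 548 in GDNF samples, against 635 and 594 in control samples. With 4 samples, likeness of this kind is a description only.

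Other genes of the contractile apparatus went both ways. Of 34 listed, 24 were tested at their probe set with the highest mean, 9 with a higher and 15 with a lower mean log2 signal in GDNF samples. Of all probe sets tested, 51.5% were lower. None of the 24 passed the adjusted threshold in limma, and 2 had an unadjusted p under 0.05, against 2.73% of all probe sets. In 8 both GDNF samples lay below both controls and in 3 above, against 16.6% and 13.4% of all probe sets. Their median log2 fold change was -0.08, against -0.01 over all probe sets. The lowest were Itga8, an integrin subunit of smooth muscle and mesenchyme (-0.71, SE 0.41), Tns1, a focal adhesion protein (-0.61, SE 0.26), and Pdlim7, a PDZ and LIM domain protein of actin filaments (-0.45, SE 0.13). Itga8 was dim and overlapped between the groups, at 15.1 and 31.1 in GDNF samples and 28.8 and 45.6 in control samples. Pdlim7 read 171 and 174 in GDNF samples, against 243 and 229 in control samples. Its samples were close within each group, and the groups did not overlap (limma adjusted p = 0.999).

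The highest of that list were Synpo2, an actin-bundling protein (0.37, SE 0.25), the integrin subunit Itga1 (0.32, SE 0.20) and the LIM protein Fhl2 (0.27, SE 0.30). Fhl2 overlapped between the groups, at 188 and 319.5 in GDNF samples and 159 and 258 in control samples, while Synpo2 and Itga1 did not.

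The relatives of the 10 genes, that is other actins, tropomyosins, calponins, tropomodulins and non-muscle myosins, were listed with the intermediate filament genes Vim and Nes. Of 20 listed, 14 were tested, 12 with a lower and 2 with a higher mean (51.5% of all probe sets were lower), and a median of -0.07. Vim and Nes, both at -0.03, are among the 12. In 6 of the 14 both GDNF samples lay below both controls, against 16.6% of all probe sets. Of the 14, 1 had an unadjusted limma p under 0.05, against 2.73% of all probe sets, and none passed the adjusted threshold. Myl12b, a non-muscle myosin regulatory light chain, read 802 and 892 in GDNF samples, against 1058 and 991 in control samples (-0.28, SE 0.11). Tmod1, which caps the pointed ends of actin filaments, had -0.26 (SE 0.19) and Tagln2, a transgelin of many cell types, had -0.20 (SE 0.11). At the upper end stood Myh9, a non-muscle myosin heavy chain (0.19, SE 0.15), Cnn3 (0.03, SE 0.09) and Tpm4 (-0.01, SE 0.10). The skeletal actin Acta1 was at 0.4 in both GDNF samples, against 1.6 and 0.5 in control samples, below the filter.

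Regulators of these genes were also mixed. Of 17 listed, 11 were tested, 5 higher and 6 lower, against 51.5% lower among all probe sets tested. Their median was -0.03, and none had a limma p under 0.05 before or after adjustment. Srf, which encodes serum response factor, read 207 and 216 in GDNF samples, against 203 and 199 in control samples (0.07, SE 0.12). Mrtfa, one of its co-activators, had -0.11 (SE 0.18). Myocd, which encodes myocardin, was below the filter at 29.6 and 21.5 in GDNF samples, against 18.0 and 17.1 in control samples. The lowest were Klf4, a repressor of smooth muscle genes (-0.40, SE 0.19), Gata6 (-0.35, SE 0.20) and Rock1, a kinase that sustains contraction (-0.19, SE 0.32). The highest were Hey2, a Notch target (0.42, SE 0.25), Mef2c (0.23, SE 0.21) and Nr2f2 (0.10, SE 0.12).

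Among the pericyte markers that were tested, higher means in GDNF were more common than lower ones. Of 19 listed, 11 were tested, 8 with a higher and 3 with a lower mean, against 51.5% lower among all probe sets tested. Their median was 0.06, and none had a limma p under 0.05 before or after adjustment. Pdgfrb, the receptor by which pericytes are recruited to capillaries, read 83.5 and 64.8 in GDNF samples, against 61.1 and 82.0 in control samples (0.05, SE 0.23). Cspg4, the NG2 proteoglycan, had -0.10 (SE 0.26), Kcnj8, a subunit of a potassium channel of mural cells, -0.10 (SE 0.19) and Rgs4 -0.50 (SE 0.28). The highest were Cox4i2 (0.59, SE 0.35), Heyl, a Notch target (0.46, SE 0.21), and Abcc9, the partner of Kcnj8 in that channel (0.18, SE 0.15). For Cox4i2 control replicate 1 alone was low, with 44.1 and 41.2 in GDNF samples, against 19.6 and 39.5 in control samples. Rgs5, a marker much used for pericytes, was below the filter at 5.4 and 7.1 in GDNF samples, against 10.4 and 10.2 in control samples. Higd1b (1.9 and 14.0 in GDNF, 22.3 and 24.2 in control samples) was also below it. So was Notch3 (13.1 and 10.6 in GDNF, 15.8 and 12.1 in control samples), and both had lower means in GDNF. Ndufa4l2, Angpt1 and Tbx18, likewise below the filter, had higher means in GDNF. The difference between the pericyte list and the contractile genes was not tested.

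**Figure D4:**
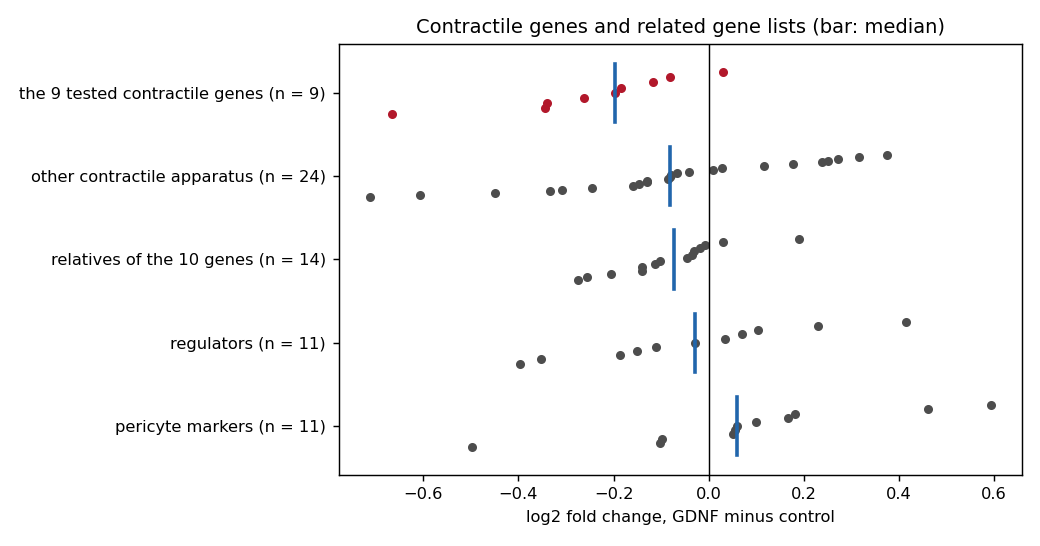
Log2 fold change, GDNF minus control, of the 9 tested contractile genes (red, at their probe set with the highest mean) and of the tested genes of 4 related lists (grey), points spread vertically for view, with the median of each as a bar. The medians were -0.20 for the contractile genes, -0.08 for other genes of the apparatus, -0.07 for relatives, -0.03 for regulators and 0.06 for pericyte markers; that of surface epithelium and mesothelium markers, not drawn, was -0.23.

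Markers of other cells in the ovary gave the following summed signals, taken over each gene's probe set with the highest mean. The sums include genes below the filter, and the brightest probe sets weigh most in them. Of all probe sets tested, 51.5% had a lower mean in GDNF. Surface epithelium and mesothelium markers had a lower mean in GDNF in 8 of 8 tested (median log2 fold change -0.23), with sums of 6302 to 6805 in GDNF samples and 7202 to 8280 in control samples. Krt19 alone gave 3365 and 3236 of these in GDNF samples and 4091 and 3632 in control samples. Lgals7, 1 of the 8, passed the filter only through its control samples, so its direction was partly fixed by the filter. Without it 7 of 7 were lower (median -0.22). Oocyte markers had a higher mean in 5 of 6 tested (median 0.47), with sums of 5421 to 6852 in GDNF samples and 4198 to 5246 in control samples. Granulosa markers had a higher mean in 6 of 7 tested (median 0.41), with sums of 3418 to 3962 in GDNF samples and 2949 to 3436 in control samples. Theca and steroidogenic markers had a higher mean in 3 of 4 tested, with sums of 632 to 688 in GDNF samples and 472 to 539 in control samples. Most of these sums was Hsd3b1, at 550 and 514.5 in GDNF samples and 405 and 344 in control samples.

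Endothelial markers had a lower mean in 6 of 7 tested (sums of 1410 to 1477 in GDNF and 1511 to 1554 in control samples). Most of these sums was Kdr, at 818 and 778 in GDNF samples and 903 and 920 in control samples. Emcn, counted among the 6, was nearly level (log2 fold change -0.0025). Cldn5 was higher (0.37) and did not overlap between the groups. Flt1 and Vwf, below the filter, had higher means in GDNF. Stromal fibroblast markers split into 4 higher and 4 lower (14952 to 15357 in GDNF and 14856 to 15731 in control samples). The part of these other cells in the values of the contractile genes was not tested. Of the 11 measured striated muscle markers, 9 were below the filter, among them Myod1 at 0.5 and 0.9 in GDNF samples and 0.3 and 1.2 in control samples, and Des was 1 of the 2 tested. No measured marker in these lists was at exactly 0. The specific smooth muscle marker Lmod1 was below the filter in these ovaries, and so was Kcnmb1, a smooth muscle potassium channel subunit, at 2.0 and 1.5 in GDNF samples and 2.7 and 1.0 in control samples. Other listed genes of the contractile apparatus below the filter went both ways and were not tested. Itga7, Kcnma1 and Sgca were higher in both GDNF samples than in either control. Ppp1r12b was lower in both, and Dmd, Pln and Lpp overlapped.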

How the data were processed

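Per the submitters' processing notes, the deposited values are array intensities that the authors computed with MAS5 (version not given), which combines the probes of a probe set into 1 linear signal and scales each array to a common mean, so a change in total RNA cannot be seen. Detection calls were not used. Of 31099 probe sets, 57 Affymetrix controls were left out. Symbols came from GEO's platform annotation (20826 probe sets with 1 symbol, 436 with several, 9780 with none), checked through Entrez identifiers against RefSeq genes of GRCr8, with 20758 matched and 0 changed. Signals were taken as log2(signal + 1), which understates changes of dim probe sets, and filtered at the 40th percentile of the mean, which left 18625. Groups, taken from the sample titles, were set against each other in limma (version 3.58.1, under R 4.3.3; eBayes with trend, group as the only term, two-sided, Benjamini-Hochberg over 18625). The number of arrays limits the precision. The fit was tested on simulated data. All 10 genes were named, with the 3 highest and 3 lowest tested of each related list. Srf, Mrtfa, Myocd, Pdgfrb, Rgs5, Higd1b, Notch3, Ndufa4l2, Angpt1, Tbx18, Acta1, Kcnmb1, Myod1, Krt19 and Hsd3b1 were named after their values were seen. So were Kdr, Emcn, Cldn5, Flt1, Vwf, Itga7, Kcnma1, Sgca, Ppp1r12b, Dmd, Pln and Lpp. Genes and lists were chosen with earlier results of these data known. Alternatives were a pseudocount of 16, no filter, the 60th percentile, quantile normalization, median centring, no trend, a replicate block, 1 probe set per gene and each sample left out.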

Additional observations from a re-analysis of the deposited data

How the results depend on the processing

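None of the 13 contractile probe sets was called under any alternative tried, and their median log2 fold change stayed below 0 in each. The number with a higher mean in GDNF was 3 of 13 as reported, 6 of 18 with no filter, 1 of 9 with the filter at the 60th percentile and 1 of 9 with 1 probe set per gene. With each sample left out in turn that number was 2 to 3 and the median -0.26 to -0.18. With the replicate number as a block (replicate block) limma called 8 of all probe sets and 0 of the contractile ones. The deviations of same-numbered samples from their group means correlated at 0.323 across genes, and what the number stands for is not in the labels. Directions turned with 1 sample left out for Actg2 (-0.11 to 0.17), Myl9 (-0.40 to 0.24), Myh11 (-0.73 to 0.36), Tpm1 1368724_a_at (-0.26 to 0.34) and Tpm1 1371241_x_at (-0.30 to 0.53), and the cause was not tested. Low signals such as those of Myh11, Cnn1 and Lmod1 limit what can be read from them.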
